A study of Mus musculus with 12 samples.

Results

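The genes described here encode the HSP70 chaperones and the proteins that drive their cycle: the DNAJ proteins, the HSP110 proteins and the BAG proteins. They were taken from the gene table by symbol: Dnaja, Dnajb or Dnajc followed by a number, Hspa followed by a number, Hsph1, and Bag1 to Bag6. This gave 61 of the 24100 genes in the table, made up of 43 DNAJ genes, 12 HSP70 and HSP110 genes and 6 BAG genes. The symbols Dnajc6, Dnajb9, Hspa5 and Hspa8 also match these patterns and were left out by the rule. The rule uses symbols alone and no measured value, but the family was proposed with earlier results of these data known.

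An HSP70 protein binds unfolded stretches of a client protein and holds them tightly once it has hydrolysed ATP. DNAJ proteins carry a J domain that triggers this hydrolysis, and they decide which client, or which place in the cell, the HSP70 works on. HSP110 and most BAG proteins are nucleotide exchange factors: they release ADP so that the client can leave. In neurons this machinery uncoats clathrin vesicles, keeps synaptic vesicle proteins folded and handles aggregation-prone proteins, tau among them.

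RNA was sequenced from primary entorhinal cortex (EC) cultures of C57BL/6J mouse embryos at embryonic day 17, in 4 groups of 3 wells. Each culture received an AAV1 vector at 1e+10 viral genomes per ml after 7 days in vitro and was collected 4 days later. Dek-silenced wells received AAV1-mCherry-U6-mDEK-shRNA, a single hairpin against Dek, which encodes a chromatin-binding protein, and their controls received AAV1-mCherry-U6-scrmb-shRNA, a scrambled hairpin. Overexpressing wells received AAV1-hSyn1-mDEK-IRES-mCherry, in which the neuronal synapsin promoter drives a Dek cDNA, and their controls received the empty vector AAV1-hSyn1-mCherry-WPRE. All 4 groups therefore carried an AAV and mCherry, and the U6 promoter is not restricted to neurons. The labels do not say whether the wells of a group came from separate dissections, so p-values measure the spread between these wells. Levels are given in CPM, counts per 1000000 counts after scaling of all 12 libraries together, and log2 fold changes (log2FC, with SE) come from the fit of the 2 groups compared. A gene was called where its adjusted p, taken over every gene that the comparison tested, was below 0.05.

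The libraries held between 15679567 and 18933382 estimated counts. Dek was at 7.82, 6.52 and 8.46 CPM in Dek-silenced wells, against 35.3, 36.6 and 36.2 CPM in scrambled wells (log2FC = −2.23, SE 0.10, adjusted p = 1.31e-08). It was at 158, 130 and 144 CPM in overexpressing wells, against 36.4, 39.2 and 41.4 CPM in empty-vector wells (log2FC = 1.89, SE 0.08, adjusted p = 1.36e-08). Summed neuron markers were at 6063 to 6332 CPM in Dek-silenced wells and 6700 to 6993 CPM in scrambled wells, and 0 of the 7 neuron markers were absent in any group. In the test against scrambled 1 of the 7 was higher and 3 were lower. The 5 oligodendrocyte markers summed to 80.8 to 88.1 CPM in Dek-silenced wells, against 30.8 to 41.1 CPM in scrambled wells and 45.0 to 46.0 CPM in empty-vector wells, with 4 of the 5 higher and 1 lower in the test against scrambled. Summed markers of oligodendrocyte precursors were at 90.7 to 195.7 CPM in Dek-silenced wells and 62.3 to 110.0 CPM in scrambled wells, with 3 of 5 higher and 0 lower. In empty-vector wells they were at 52.4 to 83.2 CPM, and against these wells 2 of 5 were higher in silencing and 0 lower. Summed microglia markers were at 2.78 to 3.45 CPM in Dek-silenced wells, 4.36 to 6.14 CPM in scrambled wells and 9.3 to 9.9 CPM in empty-vector wells. Of the 3 microglia markers tested against scrambled 1 was lower, Aif1 (means of 1.2 and 3.66 CPM). Cx3cr1 (log2FC = 0.58) and Csf1r (0.08) were not called. In the comparisons with the empty vector, 5 astrocyte markers summed to 266 to 531 CPM in Dek-silenced wells and 273 to 482 CPM in scrambled wells, against 208.5 to 275 CPM in empty-vector wells, with 2 of the 5 higher in silencing and 1 in scrambled. The 3 GABAergic markers summed to 2171 to 2522 CPM in Dek-silenced wells and 2246 to 2405 CPM in scrambled wells, against 1851 to 1918 CPM in empty-vector wells, with 2 higher in silencing and 3 in scrambled. The part of these cell types in the results below was not tested, and in bulk RNA fewer cells of a type and less RNA per cell cannot be told apart.

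Of the 61 genes, 55 had enough counts to be tested, the same 55 in every comparison. Dnajb7, Dnajb8, Dnajb13, Dnajc5b, Dnajc5g and Dnajc22 were not tested, and their highest count in any library was 11, in Dnajb13. Per kilobase of the longest annotated protein-coding transcript, the most abundant members in empty-vector wells were Hspa9, the mitochondrial HSP70, at 152 ± 9.26 CPM per kb (SD, n = 3), Bag1 at 103 ± 2.37, Dnajc7 at 96.5 ± 1.32, Dnaja1 at 93.7 ± 0.67 and Hspa4 at 90.4 ± 1.54 CPM per kb. In this order the wells of neighbouring genes did not overlap. The order depends on the transcript taken for each gene, which the spread between wells does not measure. Without division by length, Dnajc5 (551 CPM) and Dnaja1 (527 CPM) were above Hspa9 (463 CPM) in these wells. The stress-inducible HSP70 genes were low, with Hspa1a at 3.78 and Hspa1b at 1.89 CPM per kb, and the lowest tested members were Dnajb14 at 0.52, Bag3 at 0.43 and Hspa12b at 0.27 CPM per kb.

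**Figure D1:**
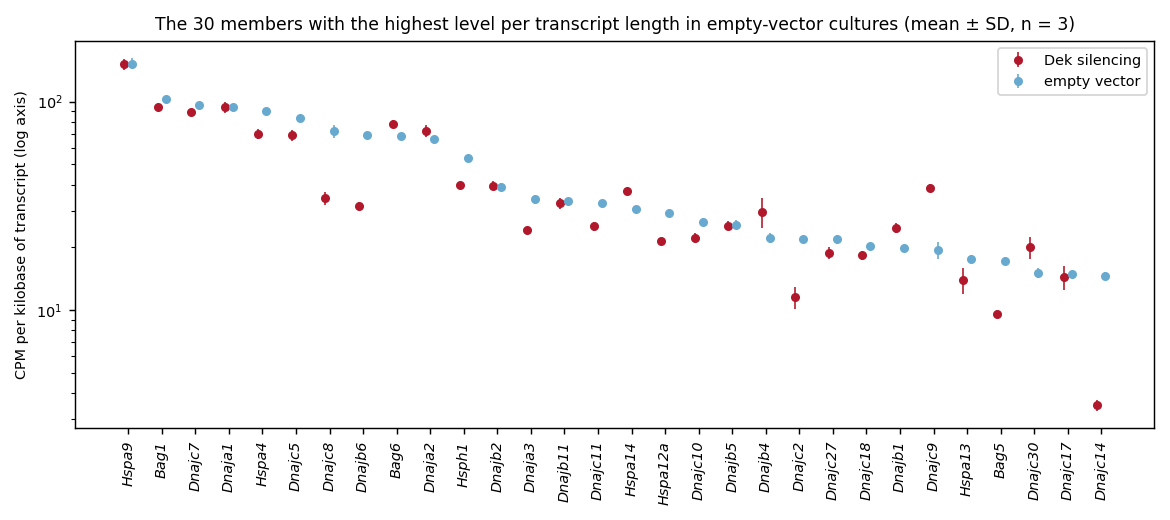
Level of the 30 members with the highest empty-vector value, in CPM per kilobase of the longest annotated protein-coding transcript on a log axis (points, mean; bars, SD; n = 3 wells), in Dek-silenced wells (red) and empty-vector wells (blue). Hspa9 is highest at 152 CPM per kb in empty-vector wells, and Dnajc14 at the right shows the widest gap between the groups.

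Members differed in both directions after Dek silencing. With a single hairpin against Dek, loss of Dek cannot be told apart from other effects of that hairpin. Against scrambled wells 11 of the 55 tested members were higher and 15 were lower. Over all 14232 genes tested, 26.2% were called higher and 28.5% lower, so the members' 26 calls (47.3%) were close to the share of all genes called (54.7%). The median log2FC of the members was 0.02, against 0.00 over all genes. The same shares stand behind the counts by role below, and the roles were chosen with earlier results of these data known. Among called members 5 fell by more than 1 on the log2 scale, Dnajc14, Dnajc8, Dnajb6, Dnajc2 and Bag5, and 0 rose by as much. The share of all genes beyond this threshold was not taken. Of these 26, Dnajc7, Dnajc16 and Dnajc18 were not called against the empty vector and Hspa12a was called in the opposite direction, in a comparison that shares the silenced wells. The call of 18 members, 6 higher and 12 lower, held under each of 16 other settings. The count of higher members was 6 without silencing replicate 2, 7 without scrambled replicate 3 and 18 with scaling by library size, a scaling that moved the median of all genes by 0.10. A correction for the GC content and length of the transcripts called 28 members, 12 higher and 16 lower. Over all 13631 genes tested in that fit, 3655 were higher and 4038 lower. Of the 26 calls 5 were lost, those of Bag6, Dnajb1, Dnajc5, Dnajc18 and Hsph1. The 7 gained were Bag1, Bag4, Dnaja1, Dnajb11 (−0.23, adjusted p = 0.0228), Dnajc17, Dnajc28 (0.34, adjusted p = 0.0471) and Hspa12b (−0.99, adjusted p = 0.0362).

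**Figure D2:**
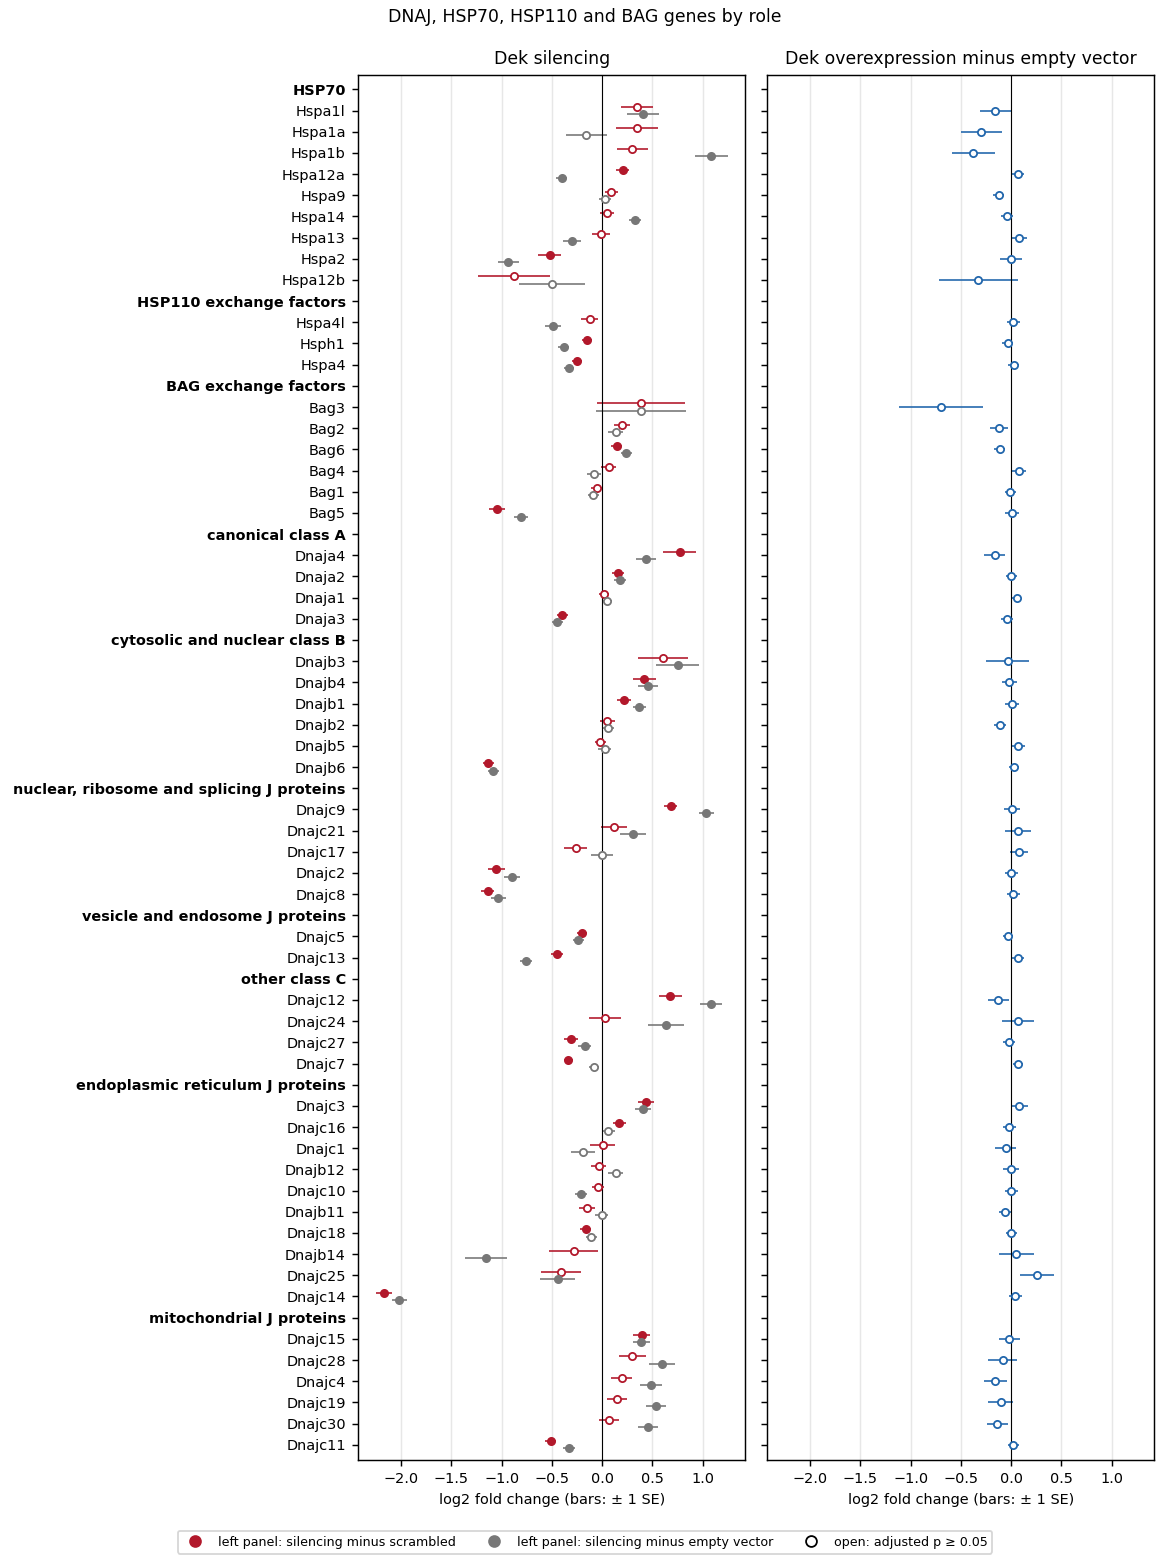
Log2 fold changes (x axis, ± 1 SE) of the 55 tested members, grouped by role: on the left Dek silencing minus scrambled (red) and minus empty vector (grey), on the right Dek overexpression minus empty vector (blue). Filled points passed an adjusted p of 0.05. Dnajc14 lies farthest left at −2.17, and 0 of the 55 points on the right are filled.

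The inducible cytosolic HSP70s, Hspa1a and Hspa1b, were not called against scrambled. Hspa1a was at 6.79, 12.2 and 10.1 CPM in Dek-silenced wells, against 8.29, 8.65 and 6.26 CPM in scrambled wells, and the wells overlapped (log2FC = 0.35, SE 0.21, adjusted p = 0.193). Hspa1b was at 8.43, 11.7 and 12.7 CPM in Dek-silenced wells, against 9.08, 9.25 and 8.62 CPM in scrambled wells (log2FC = 0.30, SE 0.15, adjusted p = 0.117), again with overlap. The 2 genes are near-identical neighbours on chromosome 17 of mm10, Hspa1a from 34969359 to 34972156 and Hspa1b from 34956429 to 34959238, and 65.4% of the 31-base words of Hspa1a and 68.0% of those of Hspa1b occur in another gene's transcripts, mainly the partner's. Reads in the shared stretches could be counted for either gene, and the part of this in the values was not tested. Between the controls, scrambled wells were lower than empty-vector wells in Hspa1a (log2FC = −0.52, SE 0.16, adjusted p = 0.019) and higher in Hspa1b (log2FC = 0.77, SE 0.13, adjusted p = 0.000358). Summed, the pair was at 15.2, 23.8 and 22.8 CPM in Dek-silenced wells, 17.4, 17.9 and 14.9 CPM in scrambled wells, 15.0, 16.0 and 8.63 CPM in overexpressing wells and 14.5, 17.4 and 17.6 CPM in empty-vector wells. A fit of the summed counts, added after the data had been seen, called the pair in none of the comparisons (silencing minus scrambled 0.32, SE 0.16, adjusted p = 0.128; scrambled minus empty vector 0.03, SE 0.10, adjusted p = 0.843). A sum cannot tell reads split unevenly from opposite changes of the 2 genes.

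The regions around the start sites of Hspa1a and Hspa1b, from 250 bases before to 50 bases after, show how alike the pair is: they match at 296 of 300 positions. Each holds one 8-base heat shock element at the same place, printed in capitals, the pattern GAANNTTC (or TTCNNGAA) that reads the same on both strands and that heat shock factors bind as part of longer arrays. The sequences are those of RefSeq on GRCm38.p6, on the minus strand, Hspa1a at chr17:34972107-34972406 and Hspa1b at chr17:34959189-34959488.
Hspa1a: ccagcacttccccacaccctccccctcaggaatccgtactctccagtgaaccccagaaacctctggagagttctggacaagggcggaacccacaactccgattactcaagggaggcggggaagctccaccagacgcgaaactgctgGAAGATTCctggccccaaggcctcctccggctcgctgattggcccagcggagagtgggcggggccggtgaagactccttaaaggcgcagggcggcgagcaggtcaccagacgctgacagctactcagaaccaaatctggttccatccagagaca
Hspa1b: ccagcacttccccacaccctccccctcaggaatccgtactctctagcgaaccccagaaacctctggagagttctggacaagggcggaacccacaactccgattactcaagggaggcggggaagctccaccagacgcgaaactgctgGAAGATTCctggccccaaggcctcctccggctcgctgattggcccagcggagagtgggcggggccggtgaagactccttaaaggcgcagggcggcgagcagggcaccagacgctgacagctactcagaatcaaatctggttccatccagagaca

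Among the other HSP70s, Hspa2, a family member best known from the testis and also present in brain, fell. It was at 9.22, 10.2 and 11.4 CPM in Dek-silenced wells, against 15.1, 15.5 and 14.0 CPM in scrambled wells, with no overlap (log2FC = −0.52, SE 0.11, adjusted p = 0.0021), and the difference from the empty vector was larger (log2FC = −0.93, SE 0.10, adjusted p = 4.79e-06). Hspa12a, a distant HSP70 relative abundant in brain, depended on the control. It was at 119, 127 and 122 CPM in Dek-silenced wells, against 98.8, 112 and 111 CPM in scrambled wells (log2FC = 0.20, SE 0.06, adjusted p = 0.0165) and 171, 169 and 159 CPM in empty-vector wells (log2FC = −0.40, SE 0.06, adjusted p = 3.32e-05, and −0.15 with GC and length correction, adjusted p = 0.0169). Scrambled wells themselves were lower than empty-vector wells in Hspa12a (log2FC = −0.62, SE 0.05, adjusted p = 1.93e-06), and the call against scrambled was lost without scrambled replicate 1 or without silencing replicate 2.

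Hspa9 imports and folds proteins in the mitochondrial matrix. Its level was 488, 437 and 456 CPM in Dek-silenced wells and 479, 412 and 415 CPM in scrambled wells, with overlap (log2FC = 0.09, SE 0.06, adjusted p = 0.25). Hspa13, a microsome-associated relative, was at 67.9, 56.9 and 52.0 CPM in Dek-silenced wells and 63.8, 57.5 and 57.7 CPM in scrambled wells (log2FC = −0.01, SE 0.09, adjusted p = 0.951), and Hspa14, which works at the ribosome with Dnajc2, was at 67.1, 64.8 and 68.2 CPM in Dek-silenced wells and 72.1, 62.5 and 61.0 CPM in scrambled wells (log2FC = 0.04, SE 0.07, adjusted p = 0.618). None of the 3 was called against scrambled. Against the empty vector, Hspa13 was lower (log2FC = −0.30, adjusted p = 0.00786) and Hspa14 higher (log2FC = 0.33, adjusted p = 0.00029), in both without overlap. With GC and length correction these values were 0.02 (adjusted p = 0.786) for Hspa13 and 0.18 (adjusted p = 0.00946) for Hspa14. Hspa1l, a testis HSP70, was at 5.70, 6.95 and 5.33 CPM in Dek-silenced wells and 4.88, 4.71 and 4.66 CPM in scrambled wells, without overlap but not called (log2FC = 0.35, SE 0.16, adjusted p = 0.0824), and 71.7% of its 31-base words lie antisense to another annotated gene. Hspa12b, an endothelial relative of Hspa12a, stayed under 2 CPM, at 0.67, 0.70 and 0.52 CPM in Dek-silenced wells and 1.59, 1.07 and 0.83 CPM in scrambled wells (log2FC = −0.88, SE 0.36, adjusted p = 0.0539).

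Of the 3 HSP110 genes, Hspa4 and Hsph1 were lower in Dek-silenced wells than in scrambled wells, and all 3 were lower than in empty-vector wells, where GC and length correction left only the call of Hsph1 in that direction. Over all genes 28.5% were called lower against scrambled and 33.5% against the empty vector. Hspa4 (Apg-2), an exchange factor for cytosolic HSP70, was at 342, 313 and 315 CPM in Dek-silenced wells, against 393, 381 and 390 CPM in scrambled wells, with no overlap (log2FC = −0.25, SE 0.05, adjusted p = 0.00122). Hsph1 (HSP105) was at 154, 147 and 154 CPM in Dek-silenced wells, against 173, 167 and 168 CPM in scrambled wells, also without overlap (log2FC = −0.15, SE 0.05, adjusted p = 0.0251). The call of Hsph1 was lost in 8 of 16 settings, among them each of the 3 fits without a scrambled well. Hspa4l (Apg-1) overlapped, at 53.7, 44.0 and 43.4 CPM in Dek-silenced wells against 52.1, 49.3 and 53.2 CPM in scrambled wells (log2FC = −0.12, SE 0.08, adjusted p = 0.241). Against the empty vector the log2FC was −0.33 for Hspa4, −0.38 for Hsph1 and −0.49 for Hspa4l, and with the correction it was −0.10 (adjusted p = 0.0632), −0.29 (adjusted p = 0.000156) and 0.20 (adjusted p = 0.0124) in the same genes. Scrambled wells were already lower than empty-vector wells in Hsph1 (log2FC = −0.25, adjusted p = 0.00045) and Hspa4l (log2FC = −0.38, adjusted p = 0.000148).

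The BAG family had a single large change, the fall of Bag5, an exchange factor that also restrains the ubiquitin ligases Parkin and CHIP. Bag5 was at 20.9, 19.9 and 20.3 CPM in Dek-silenced wells, against 39.3, 43.2 and 44.3 CPM in scrambled wells, and at 35.2, 36.9 and 38.0 CPM in overexpressing wells, against 37.3, 36.2 and 36.3 CPM in empty-vector wells. The Dek-silenced wells lay far below the other 9, at 48.5% of the scrambled level (log2FC = −1.04, SE 0.08, adjusted p = 4.82e-07). Bag6, which guards newly made membrane and mislocalised proteins, was at 286, 303 and 314 CPM in Dek-silenced wells, against 275, 278 and 271 CPM in scrambled wells (log2FC = 0.14, SE 0.05, adjusted p = 0.0361), a call that 8 of 16 settings did not keep. Bag2, an inhibitor of CHIP, was at 27.3, 29.0 and 29.99 CPM in Dek-silenced wells, against 26.1, 25.8 and 24.1 CPM in scrambled wells, without overlap and not called (log2FC = 0.20, SE 0.08, adjusted p = 0.0529). Bag1, the founding member of the family, was at 130, 121 and 130 CPM in Dek-silenced wells and 134, 135 and 130 CPM in scrambled wells. Bag4, a brake on signalling by death receptors, was at 55.0, 51.7 and 46.4 CPM in Dek-silenced wells and 49.4, 49.1 and 49.1 CPM in scrambled wells, and in both genes the groups overlapped. Both were called under GC and length correction, Bag1 lower (−0.19, adjusted p = 0.00751) and Bag4 higher (0.21, adjusted p = 0.0141). Bag1 was then also lower than the empty vector (−0.45, adjusted p = 3.22e-06, against −0.09 uncorrected). Bag3, which directs clients to selective autophagy, was at 0.49, 1.66 and 2.04 CPM in Dek-silenced wells and 0.85, 1.31 and 1.12 CPM in scrambled wells, too few counts to show a difference of the size measured (log2FC = 0.39, SE 0.44, adjusted p = 0.478).

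**Figure D3:**
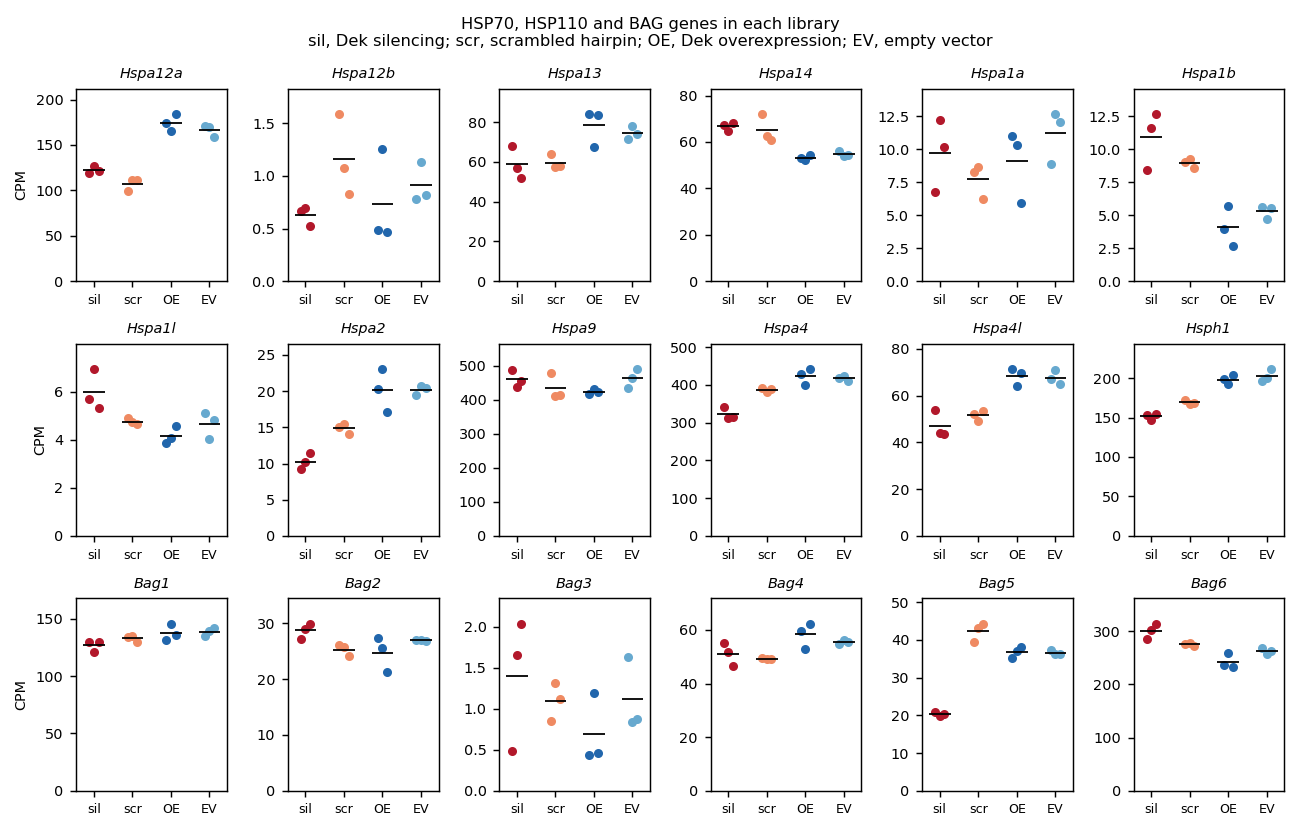
Level of each HSP70, HSP110 and BAG gene in CPM (y axis from 0) in the 12 libraries, from left to right Dek silencing, scrambled hairpin, Dek overexpression and empty vector; points are wells and lines are means of 3. The silencing wells of Bag5 lie between 19.9 and 20.9 CPM, below every other well, while Hspa12a lies between 98.8 and 127 CPM in both hairpin groups and between 159 and 184 CPM in the other 2.

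The canonical class A and class B DNAJ proteins are the general partners of cytosolic HSP70. Of the 4 class A genes, Dnaja4 and Dnaja2 rose and Dnaja3 fell, beside 26.2% of all genes called higher and 28.5% lower. Dnaja4 was at 46.2, 43.0 and 38.0 CPM in Dek-silenced wells, against 32.2, 22.9 and 19.9 CPM in scrambled wells, and at 27.6, 26.0 and 32.5 CPM in overexpressing wells, against 28.1, 32.0 and 36.7 CPM in empty-vector wells. The silencing wells were above all others, and the size of the rise followed the control: log2FC = 0.77 (SE 0.16, adjusted p = 0.00423) against scrambled and 0.43 (SE 0.10, adjusted p = 0.00234) against the empty vector. Dnaja4 overlaps the antisense gene Wdr61 over 43.2% of its 31-base words, and since the sources do not say whether the libraries kept strand, reads of the 2 genes cannot be told apart there. Wdr61 was at 71.0, 62.9 and 70.5 CPM in Dek-silenced wells and 60.1, 57.5 and 59.6 CPM in scrambled wells.

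Dnaja2, a cytosolic partner of constitutive HSP70, was at 225, 211 and 198 CPM in Dek-silenced wells and 198, 189 and 185 CPM in scrambled wells, a small rise in overlapping wells (log2FC = 0.16, SE 0.06, adjusted p = 0.0345) that 4 of 16 settings did not keep. Dnaja3, the mitochondrial class A protein, was at 63.6, 63.2 and 65.7 CPM in Dek-silenced wells, against 87.0, 83.8 and 85.0 CPM in scrambled wells, with no overlap (log2FC = −0.40, SE 0.06, adjusted p = 7.68e-05). Dnaja1, the most abundant of the class per transcript length, was at 566, 518 and 505 CPM in Dek-silenced wells and 515, 537 and 530 CPM in scrambled wells (log2FC = 0.02, SE 0.05, adjusted p = 0.798). Dnaja1 was called higher under GC and length correction, against scrambled (0.21, adjusted p = 0.0013) and against the empty vector (0.50, adjusted p = 1.8e-07). In the same setting scrambled wells were higher than empty-vector wells (0.30, adjusted p = 2.93e-05).

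In class B, 6 of 9 genes could be tested, and Dnajb6 was the one that fell. Dnajb6 suppresses the aggregation of polyglutamine and amyloid-forming proteins. Its level was 89.1, 92.5 and 96.0 CPM in Dek-silenced wells, against 202, 203 and 210 CPM in scrambled wells, and 210, 202 and 203 CPM in overexpressing wells, against 199, 201 and 205 CPM in empty-vector wells. The 9 other wells lay within 199 to 210 CPM, so Dek silencing left 45.5% of the scrambled level (log2FC = −1.13, SE 0.05, adjusted p = 1.66e-08; against the empty vector −1.08, SE 0.05, adjusted p = 4.06e-09). Dnajb6 shares 19.0% of its 31-base words with other annotated genes, mainly Gm2541.

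Dnajb4 and Dnajb1, both stress-inducible, rose. Dnajb4 was at 86.7, 69.1 and 63.4 CPM in Dek-silenced wells, against 60.5, 53.5 and 51.0 CPM in scrambled wells, without overlap (log2FC = 0.42, SE 0.11, adjusted p = 0.0109). Dnajb1 (HSP40) was at 69.5, 75.0 and 77.8 CPM in Dek-silenced wells, against 61.2, 69.0 and 62.6 CPM in scrambled wells (log2FC = 0.22, SE 0.07, adjusted p = 0.0187), and its wells were separated by only the gap between 69.0 and 69.5 CPM. That call was lost in 6 of 16 settings, GC and length correction among them, while against the empty vector Dnajb1 was higher (log2FC = 0.37, SE 0.07, adjusted p = 0.000298, and 0.20 with the correction, adjusted p = 0.00963). Dnajb2, a neuronal member that binds ubiquitin chains, and Dnajb5 differed by 0.05 and −0.02 on the log2 scale and overlapped. Dnajb3, a testis gene with values under 5 CPM, was not called (log2FC = 0.61, SE 0.25, adjusted p = 0.0542).

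Dnaja4, Dnajb4 and Dnajb6, and Hsph1 of the HSP110 group, carry the heat shock element in the window from 250 bases before to 50 bases after a RefSeq start site, and these windows are shown because the element sits in genes that rose and in genes that fell. Dnaja4 at chr9:54699309-54699608 (plus strand) has 2 elements, Dnajb4 at chr3:152193796-152194095 (minus strand) has 1, Dnajb6 at chr5:29735648-29735947 (plus strand) has 2 that overlap, and Hsph1 at chr5:149636266-149636565 (minus strand) has 3, of which 2 overlap. Dnaja4 and Dnajb4 rose, Dnajb6 and Hsph1 fell. The elements are in capitals.
Dnaja4: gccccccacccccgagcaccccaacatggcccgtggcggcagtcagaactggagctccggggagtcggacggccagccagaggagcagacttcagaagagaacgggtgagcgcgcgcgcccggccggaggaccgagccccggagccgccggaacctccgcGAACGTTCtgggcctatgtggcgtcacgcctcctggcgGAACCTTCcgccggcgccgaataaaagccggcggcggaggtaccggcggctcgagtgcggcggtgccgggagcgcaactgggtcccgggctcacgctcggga
Dnajb4: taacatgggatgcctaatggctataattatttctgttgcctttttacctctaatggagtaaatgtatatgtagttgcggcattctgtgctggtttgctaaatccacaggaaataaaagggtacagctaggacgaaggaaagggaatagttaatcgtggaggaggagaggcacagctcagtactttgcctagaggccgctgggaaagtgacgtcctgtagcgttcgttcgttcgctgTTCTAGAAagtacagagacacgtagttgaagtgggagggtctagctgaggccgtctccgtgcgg
Dnajb6: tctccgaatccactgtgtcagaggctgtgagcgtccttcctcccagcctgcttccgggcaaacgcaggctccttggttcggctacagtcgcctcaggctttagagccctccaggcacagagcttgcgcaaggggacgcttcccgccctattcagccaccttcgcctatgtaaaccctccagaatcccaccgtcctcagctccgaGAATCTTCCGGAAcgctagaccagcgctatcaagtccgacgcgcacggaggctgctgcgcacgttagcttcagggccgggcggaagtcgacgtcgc
Hsph1: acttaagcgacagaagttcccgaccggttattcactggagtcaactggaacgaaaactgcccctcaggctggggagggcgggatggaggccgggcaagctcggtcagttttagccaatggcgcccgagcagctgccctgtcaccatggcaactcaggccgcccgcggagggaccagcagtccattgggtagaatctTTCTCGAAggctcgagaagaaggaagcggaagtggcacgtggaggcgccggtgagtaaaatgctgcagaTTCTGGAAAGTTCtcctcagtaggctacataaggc

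Of the 50 members with an entry among these windows, 11 (22.0%) held at least 1 element, against 15.8% of 18038 genes of the table. By their call against scrambled, 2 of 10 higher members with an entry held it (Dnaja4 and Dnajb4), 3 of 11 lower members (Dnajb6, Dnajc27 and Hsph1) and 5 of 25 members not called (Bag3, Dnaja1, Dnajc10, Hspa1a and Hspa1b). A match is a match of letters, not evidence that a factor binds there.

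Of the 5 DNAJ genes whose proteins work in the nucleus, at the ribosome or in splicing, 2 were lower (Dnajc8 and Dnajc2), 1 was higher (Dnajc9) and 2 were not called. Over all genes 28.5% were lower and 26.2% higher. Dnajc8, which associates with the spliceosome, was at 48.9, 44.3 and 51.3 CPM in Dek-silenced wells, against 113, 105 and 104 CPM in scrambled wells, and at 97.8, 106 and 104 CPM in overexpressing wells, against 94.2, 101 and 109 CPM in empty-vector wells. Silencing left 45.4% of the scrambled level (log2FC = −1.14, SE 0.07, adjusted p = 7.78e-08). Dnajc2 (MPP11), the ribosome-associated J protein that folds nascent chains together with Hspa14, was at 30.9, 24.4 and 28.1 CPM in Dek-silenced wells, against 59.2, 58.0 and 57.0 CPM in scrambled wells, and at 50.8, 54.9 and 53.4 CPM in overexpressing wells, against 54.3, 52.8 and 52.1 CPM in empty-vector wells. Again the silencing wells lay below every other well (log2FC = −1.05, SE 0.08, adjusted p = 8.04e-07), whereas Hspa14, its HSP70 partner, overlapped between the hairpin groups.

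Dnajc9, a chaperone of histones H3 and H4, moved the other way. It was at 64.8, 64.0 and 60.2 CPM in Dek-silenced wells, against 39.7, 37.4 and 41.6 CPM in scrambled wells, and at 31.6, 33.4 and 30.3 CPM in overexpressing wells, against 30.3, 35.0 and 29.6 CPM in empty-vector wells. The rise was 0.68 on the log2 scale against scrambled (SE 0.07, adjusted p = 4.66e-06) and 1.04 against the empty vector (SE 0.07, adjusted p = 9.66e-08), the scrambled wells lying between. Dnajc17, a splicing factor, was at 15.0, 12.3 and 16.1 CPM in Dek-silenced wells and 16.5, 19.0 and 17.2 CPM in scrambled wells, not called (log2FC = −0.26, SE 0.12, adjusted p = 0.0711), though it was called with GC and length correction (−0.41, adjusted p = 0.00707). Dnajc17 shares 25.0% of its 31-base words with Gm6257. Dnajc21, a factor of ribosome assembly, overlapped (log2FC = 0.12, SE 0.13, adjusted p = 0.473).

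Both tested genes of the vesicle and endosome group fell, beside 28.5% of all genes called lower. Dnajc13 (RME-8), which acts with HSP70 on endosomal clathrin and retromer, was at 43.4, 41.5 and 40.3 CPM in Dek-silenced wells, against 57.3, 57.0 and 57.9 CPM in scrambled wells and 74.6, 73.9 and 68.9 CPM in empty-vector wells. The 3 groups did not overlap: silencing differed by −0.45 from scrambled (SE 0.06, adjusted p = 7.21e-05), and scrambled by −0.32 from the empty vector (SE 0.05, adjusted p = 0.00027). With GC and length correction the values were −0.23 for silencing against scrambled (adjusted p = 0.0045), −0.01 for scrambled against the empty vector (adjusted p = 0.942), and −0.24 for silencing against the empty vector (adjusted p = 0.00174), where the uncorrected value was −0.76. Dnajc5, the cysteine string protein of synaptic vesicles, was at 484, 449 and 430 CPM in Dek-silenced wells, against 532, 527 and 517 CPM in scrambled wells (log2FC = −0.20, SE 0.05, adjusted p = 0.00609). Its call was lost with GC and length correction and with scaling by library size, and against the empty vector the correction turned its direction (0.09, adjusted p = 0.111).

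Of the 4 tested class C genes with other roles, Dnajc12 rose, and Dnajc7 and Dnajc27 fell. Over all genes 26.2% were higher and 28.5% lower. Dnajc12, the co-chaperone of the aromatic amino acid hydroxylases that make dopamine and serotonin precursors, was at 27.3, 21.2 and 25.7 CPM in Dek-silenced wells, against 16.7, 13.8 and 16.2 CPM in scrambled wells, and at 10.8, 11.3 and 10.7 CPM in overexpressing wells, against 11.3, 12.7 and 11.9 CPM in empty-vector wells. Every silencing well was above every other well (log2FC = 0.68, SE 0.11, adjusted p = 0.000316 against scrambled, and 1.09, SE 0.11, adjusted p = 1.87e-06 against the empty vector). Dnajc7, which binds both HSP70 and HSP90, was at 213, 205 and 203 CPM in Dek-silenced wells, 266, 265 and 261 CPM in scrambled wells and 224, 222 and 228 CPM in empty-vector wells. Its fall against scrambled (log2FC = −0.34, SE 0.05, adjusted p = 8.85e-05) was accompanied by a difference between the controls (scrambled minus empty vector 0.24, SE 0.04, adjusted p = 0.000218), and against the empty vector it was −0.08 (SE 0.05, adjusted p = 0.184), or −0.27 with GC and length correction (adjusted p = 0.000138). Dnajc27, a small GTPase with a J domain, was at 94.0, 81.8 and 89.0 CPM in Dek-silenced wells, against 117, 112 and 102 CPM in scrambled wells (log2FC = −0.31, SE 0.07, adjusted p = 0.00215). Dnajc24, needed for the diphthamide modification of elongation factor EEF2, was not called (log2FC = 0.03, SE 0.16, adjusted p = 0.896).

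Among the 10 J proteins of the endoplasmic reticulum, Dnajc14 had the largest change of any of the 55 tested members. Dnajc14, a membrane protein that takes part in the export of some receptors, was at 14.6, 14.1 and 15.8 CPM in Dek-silenced wells, against 65.7, 70.8 and 65.5 CPM in scrambled wells, and at 65.9, 62.9 and 61.3 CPM in overexpressing wells, against 65.0, 60.9 and 59.4 CPM in empty-vector wells. Silencing left 22.2% of the scrambled level (log2FC = −2.17, SE 0.08, adjusted p = 2.36e-09; against the empty vector −2.02, SE 0.08, adjusted p = 5.27e-10), close to the 21.3% left of Dek itself. Over 16.5% of its 31-base words Dnajc14 lies antisense to Ormdl2, its neighbour on chromosome 10, and Ormdl2, a regulator of sphingolipid synthesis, moved the opposite way. Ormdl2 was at 11.2, 10.4 and 9.93 CPM in Dek-silenced wells, against 2.50, 3.40 and 3.07 CPM in scrambled wells, and at 1.67, 2.21 and 2.20 CPM in overexpressing wells, against 2.24, 2.57 and 2.03 CPM in empty-vector wells (silencing minus scrambled 1.82, SE 0.15, adjusted p = 1.25e-06). Without strand, reads in the shared stretch cannot be assigned to either gene, and its part in both values was not tested.

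Dnajc3 (P58IPK), an endoplasmic reticulum co-chaperone of BiP induced when unfolded proteins build up, rose: it was at 52.5, 55.0 and 55.2 CPM in Dek-silenced wells, against 44.2, 40.4 and 36.5 CPM in scrambled wells (log2FC = 0.44, SE 0.08, adjusted p = 0.00046), and the difference from the empty vector was of the same size (log2FC = 0.41, SE 0.08), though 0.78 with GC and length correction. The changes of Dnajc16 and Dnajc18 were small. Dnajc16 was at 45.1, 46.0 and 42.2 CPM in Dek-silenced wells, against 40.0, 40.2 and 39.1 CPM in scrambled wells (log2FC = 0.17, SE 0.07, adjusted p = 0.0467), and Dnajc18 was at 98.8, 94.2 and 89.7 CPM in Dek-silenced wells, against 108, 107 and 104 CPM in scrambled wells (log2FC = −0.16, SE 0.06, adjusted p = 0.0243). Of the 16 other settings, 7 did not keep the call of Dnajc16 and 8 that of Dnajc18, and neither was called against the empty vector. With GC and length correction against the empty vector, Dnajc16 was at 0.26 (adjusted p = 0.00305) and Dnajc18 at 0.16 (adjusted p = 0.0182). The other 6, Dnajb11, Dnajb12, Dnajb14, Dnajc1, Dnajc10 and Dnajc25, were not called, with log2FC between −0.41 for Dnajc25 and 0.00 for Dnajc1. Dnajb14 stood out only against the empty vector, at 2.30, 2.51 and 1.57 CPM in Dek-silenced wells, 3.12, 2.33 and 2.36 CPM in scrambled wells and 4.37, 5.68 and 4.61 CPM in empty-vector wells (silencing minus empty vector −1.16, SE 0.21, adjusted p = 0.000328, and −0.52, adjusted p = 0.0365, with GC and length correction; scrambled minus empty vector −0.89, SE 0.19, adjusted p = 0.00198, and −0.50, adjusted p = 0.0606, with GC and length correction).

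In mitochondria, Dnajc11, which is bound to the complex that shapes the cristae, fell, and Dnajc15, a J protein of the import motor, rose. Dnajc11 was at 83.3, 75.1 and 79.6 CPM in Dek-silenced wells, against 115, 113 and 114 CPM in scrambled wells (log2FC = −0.51, SE 0.06, adjusted p = 1.06e-05). Dnajc15 was at 20.9, 19.8 and 21.7 CPM in Dek-silenced wells, against 16.6, 15.3 and 15.9 CPM in scrambled wells (log2FC = 0.39, SE 0.09, adjusted p = 0.00245). In both genes the wells were separated. Dnajc19 (a partner of Hspa9 in protein import), Dnajc4, Dnajc28 and Dnajc30 were not called against scrambled, with log2FC between 0.07 and 0.30, but each was called higher than the empty vector, by 0.53, 0.49, 0.59 and 0.46. Over all genes 34.0% were called higher than the empty vector. The next values are those of the 4 members. With GC and length correction the calls of Dnajc4 (0.06, adjusted p = 0.675) and Dnajc30 (0.12, adjusted p = 0.227) were lost. Of these 4, scrambled wells were higher than empty-vector wells in Dnajc19 (0.37, SE 0.09, adjusted p = 0.00434) and Dnajc30 (0.37, SE 0.08, adjusted p = 0.00161). With the correction the call of Dnajc19 was kept (0.44, adjusted p = 0.00229) and that of Dnajc30 was lost (0.19, adjusted p = 0.0804). Over 24.9% of its 31-base words Dnajc30 lies antisense to Bud23.

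**Figure D4:**
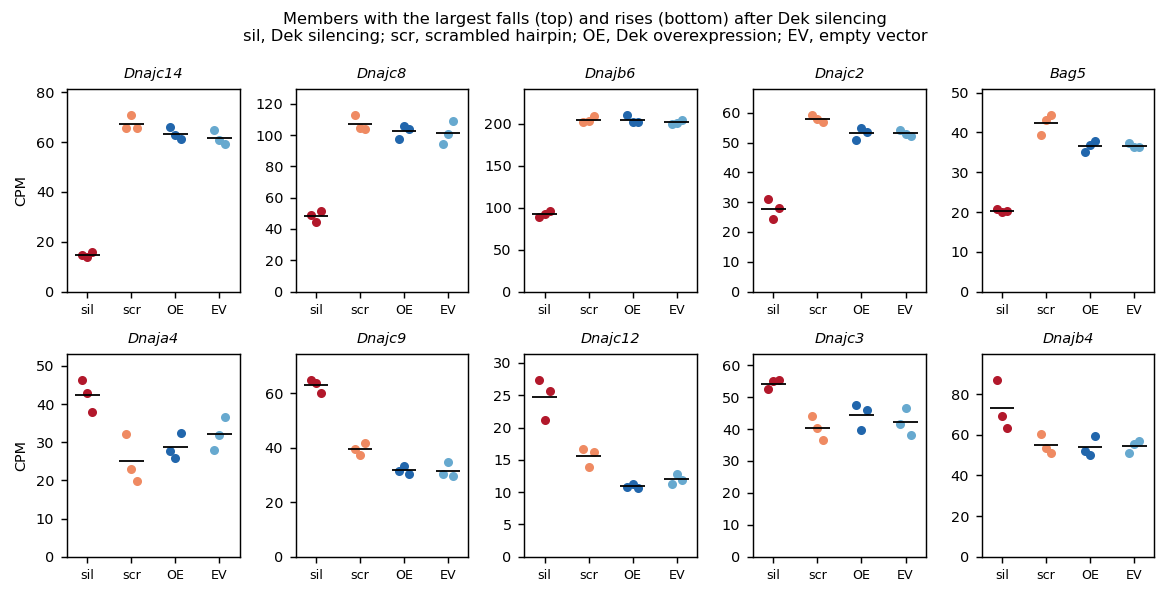
Level in CPM (y axis from 0) of the 5 members that fell most (top) and the 5 that rose most (bottom) after Dek silencing, among members averaging at least 5 CPM; points are wells, lines are means of 3, and groups run from left to right as Dek silencing, scrambled hairpin, Dek overexpression and empty vector. In Dnajc14 the silencing wells lie between 14.1 and 15.8 CPM and all others between 59.4 and 70.8 CPM.

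The 2 controls differed from each other in many of these genes. Scrambled wells were higher than empty-vector wells in 12 members and lower in 10, where 21.3% of all 14096 genes tested were called higher and 21.8% lower. Members with the largest such differences were Dnajb14 (log2FC = −0.89), Hspa1b (0.77), Hspa12a (−0.62) and Dnajc24 (0.59). With GC and length correction the number lower was 6. Over all genes it was 2001 of 13523, against 3076 of 14096 without the correction. Dnajc5 turned to a call in the higher direction (0.17, adjusted p = 0.00465). Dek-silenced wells were higher than empty-vector wells in 19 members and lower in 19, against 34.0% and 33.5% of all 14292 genes tested. Among members the correction changed more calls in these comparisons than against scrambled. The share of all genes whose call it changed was not taken. Against the empty vector 12 of the 38 calls in silencing were lost and 9 members gained one. Of the 22 calls in scrambled 11 were lost, and 8 members gained one. The hairpin and the cassette it sits in cannot be told apart in comparisons with the empty vector, and the comparisons of silencing with both controls share the silenced wells.

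Dek overexpression changed 0 of the 55 members at an adjusted p of 0.05 by edgeR, and 0 by the DESeq2 Wald test and by limma-voom. Over all genes the share called was 0.00710%, a single gene of 14089, which was Dek. At an unadjusted p below 0.05, 0 members were higher and 1 was lower, Hspa9, against 2.92% of all genes higher and 3.68% lower. Hspa9 was at 417, 433 and 424 CPM in overexpressing wells, against 435, 463 and 492 CPM in empty-vector wells (log2FC = −0.12, SE 0.05, unadjusted p = 0.0407, adjusted p = 0.739). The widest member differences were those of low genes, Bag3 (log2FC = −0.69, SE 0.42) and Hspa1b (−0.37, SE 0.21). Among DNAJ genes the log2FC ran between −0.17 and 0.26. The genes that fell most in Dek-silenced wells were near 0 here: 0.04 (SE 0.06) for Dnajc14, 0.03 (SE 0.05) for Dnajb6, 0.02 (SE 0.07) for Dnajc8, 0.00 (SE 0.06) for Dnajc2 and 0.01 (SE 0.07) for Bag5. The silencing response minus the overexpression response, fitted over all 12 libraries, was called higher in 9 members and lower in 12, where 20.4% of all 14604 genes tested were called higher and 22.7% lower. The 5 members that fell most in silencing were among the 12. The difference reuses the silenced and scrambled wells, and overexpression was near 0 in these 5. It therefore repeats their silencing values and is no separate support for them.

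The rest of the chaperone network was read from lists of related genes, each given as counts of calls against scrambled wells beside the 26.2% higher and 28.5% lower of all genes. Of 20 genes of HSP90 and its cochaperones, 5 were higher and 8 lower, with a median log2FC of −0.05. Hsp90aa1, the inducible HSP90, was at a mean of 908 CPM in Dek-silenced wells and 2069 CPM in scrambled wells (log2FC = −1.18, SE 0.07), and Stip1, which passes clients between HSP70 and HSP90, fell (log2FC = −0.72, SE 0.06). Tomm34, a cochaperone of mitochondrial precursors, rose (log2FC = 1.46, SE 0.07). Of the 5 small heat shock proteins tested, 4 were higher and 0 lower, among them Hspb8, the partner of Bag3 (log2FC = 1.32, SE 0.17), and Cryab (log2FC = 0.41, SE 0.07), which oligodendrocytes also make. Of 16 chaperonin and prefoldin subunits 2 were higher and 7 lower, led by Vbp1 (log2FC = −1.08, SE 0.09).

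Among exchange factors and J proteins with other names, 3 of 9 tested were higher and 2 lower. Sec63, the J protein of the translocon (log2FC = −1.04, SE 0.08), and Gak, the ubiquitous relative of auxilin (−0.73, SE 0.05), fell, while Hspbp1, an HSP70 exchange factor (0.35, SE 0.07), and Hyou1, the exchange factor of BiP (0.51, SE 0.13), rose. Of the heat shock transcription factors, Hsf1 was not called (log2FC = −0.16, SE 0.12), and of the 4 genes tested in that list 1 was higher, Hsf4 (0.97, SE 0.31). Of the 4 genes left out by the rule, Dnajc6 (auxilin) was at 56.5, 47.2 and 48.1 CPM in Dek-silenced wells, against 215, 225 and 219 CPM in scrambled wells (log2FC = −2.11, SE 0.07), and Hspa8, the constitutive HSP70, was at 2387, 2124 and 2329 CPM in Dek-silenced wells, against 3403, 3296 and 3264 CPM in scrambled wells (log2FC = −0.53, SE 0.05). Dnajb9 (−0.37, SE 0.16, adjusted p = 0.0774) and Hspa5 (0.09, SE 0.27, adjusted p = 0.753) were not called.

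One sequence feature of the hairpin was looked for in the members after earlier values of these data were known: the word AAGAGGA, which is part of the stretch of Dek that the hairpin targets. It occurs in an annotated 3′ UTR of 3 of the 15 lower members, Bag5, Dnajb6 and Dnajc5 (20%, against 25.7% of all lower genes), of 3 of the 11 higher members, Dnajc15, Dnajc16 and Hspa12a (27.3%, against 11.8% of all higher genes), and of 5 of the 29 not called (17.2%, against 15.3%). The 2 controls also differed. Neither carries the Dek hairpin, but the scrambled hairpin holds AAGAG, the first 5 bases of the word, at the same place. The empty vector carries no hairpin. Of all genes lower in scrambled than in empty-vector wells 24.4% held the word, and 13% of those higher. Among members it was 4 of 10 lower (40%) and 2 of 12 higher (16.7%). The sites of Bag5 and Dnajb6, which fell by over 1 on the log2 scale, are shown with the word in capitals, on GRCm38. Bag5 at chr12:111709654-111709683 (minus strand) has the word in 1 of 2 transcripts with a 3′ UTR, and Dnajb6 at chr5:29817964-29817993 (plus strand) in 1 of 6. The annotated 3′ UTRs of Dnajc14, Dnajc8 and Dnajc2 hold no such word, and the part of these matches in the results was not tested.
Bag5: ctagcctaattAAGAGGAggaggagggaat
Dnajb6: agtatgctacaAAGAGGAttctactgtatc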

How the data were processed

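Deposited values were expected counts per gene for 12 libraries of total RNA (200 ng, Truseq RNA kit), estimated by the authors. Their processing notes name Salmon, DESeq2 and mm10 without versions, their methods also STAR 2.7.1a; strandedness is not given in the sources used here. The values were not normalized, and 38.6% were not whole numbers; they were rounded. Each pair of groups was fitted with edgeR 4.0.16 in R 4.3.3 (filterByExpr, TMM scaling, robust quasi-likelihood F test), adjusted by Benjamini-Hochberg over all genes tested; the difference of the 2 responses came from a fit of all 12 libraries. Alternatives were DESeq2 1.42.0 size factors and Wald test, library size scaling, limma 3.58.1 voom, no filter, at least 5 CPM in 3 libraries, 1 fit of all libraries, GC and length correction, a block for replicate number, omission of single libraries, a log2FC beyond 1 and, added later, Hspa1a and Hspa1b summed. Sequences and shared 31-base words came from GENCODE vM21 on GRCm38 (the assembly named mm10), promoters from RefSeq GRCm38.p6. The test was also run on simulated counts in which far fewer genes changed than here, so that run does not measure its error rate in these data. Members, roles and lists were chosen with earlier results of these data known. Each member could be named. Per-well values were given for HSP70, HSP110 and BAG genes and for called DNAJ genes averaging at least 5 CPM. Of each list up to 3 genes per direction were given. Outside this rule, per-well values were also given for Dek, Dnajc6, Hspa8, Dnaja1, Dnajc17, Dnajb14, Ormdl2 and Wdr61.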

Additional observations from a re-analysis of the deposited data

Results flagged for a closer look

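The response to Dek silencing (minus scrambled) and the response to Dek overexpression (minus empty vector) were compared within 1 fit, and the difference, silencing response minus overexpression response, passed an adjusted p of 0.05 by edgeR in 21 of the 55 members, 9 higher and 12 lower, where 20.4% of all 14604 genes tested were higher and 22.7% lower. The difference was negative in Dnajc14 (−2.19), Dnajb6 (−1.14), Dnajc8 (−1.14), Dnajc2 (−1.03), Bag5 (−1.03), Dnajc11 (−0.52), Hspa2 (−0.50), Dnajc13 (−0.50), Dnajc7 (−0.38), Dnaja3 (−0.34), Dnajc27 (−0.27) and Hspa4 (−0.26). It was positive in Dnaja4 (0.95), Dnajc12 (0.82), Dnajc9 (0.69), Dnajb4 (0.46), Dnajc15 (0.43), Dnajc3 (0.37), Bag2 (0.34), Bag6 (0.28) and Hspa9 (0.23). Bag2 and Hspa9 were not called in silencing alone, and their adjusted p for the difference were 0.0322 and 0.0432. The number higher was 5 without scrambled replicate 3. The difference reuses the silenced and scrambled wells and is no separate support for the calls in silencing.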

How the results depend on the processing

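Under 16 refits of each pair of groups, 21 of the difference, and a threshold of a log2FC beyond 1, most counts of members called stayed within 1.5 times their value, and the count for overexpression was 0 throughout. A log2FC beyond 1 left 0 higher and 5 lower for silencing against scrambled, 0 higher and 0 lower for scrambled against empty vector, 3 higher and 4 lower for silencing against empty vector, and 0 higher and 5 lower for the difference of the responses. These are counts of members, and the share of all genes beyond this threshold was not taken. Scaling by library size gave 18 higher for silencing against scrambled, against 11, and 17 higher for the difference, against 9; over all genes it moved the share of higher calls for silencing against scrambled to 59.9%, against 47.9%. Keeping genes of at least 5 CPM in 3 libraries gave 15 higher for the difference. Without single replicates the higher count ran from 6 to 13 and the lower from 13 to 16 for silencing against scrambled, and the higher from 5 to 12 and the lower from 11 to 14 for the difference.

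GC and length correction gave 6 lower for scrambled against empty vector, against 10, and 5 together with the block. Over all genes the number lower was 2001 with the correction, against 3076 without it, and 1446 together with the block. Of the members called with or without it, it turned 9, the first value being the correction alone and the second that with the block. In scrambled minus empty vector these were Bag4 (0.042 and 0.042), Dnajc17 (−0.012 and −0.014), Dnajc5 (0.17 and 0.17), Hspa4l (0.057 and 0.056) and, with the correction alone, Dnajc15 (0.25). In silencing minus empty vector they were Bag4 (0.25 and 0.24), Dnajc18 (0.16 and 0.16), Dnajc5 (0.094 and 0.094), Hspa13 (0.022 and 0.019), Hspa4l (0.20 and 0.20) and, with the correction alone, Dnajb2 (−0.17). In the difference it was Dnaja1 (0.18 and 0.18). In silencing minus scrambled, Hspa4l was at 0.15 with the correction alone (adjusted p = 0.0764) and at 0.15 with the block, where it was called. Members called in neither fit also changed sign, 5 in silencing minus scrambled, 9 in scrambled minus empty vector, 4 in silencing minus empty vector, 6 in overexpression and 4 in the difference. The cause was not tested.

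The labels do not say whether replicate numbers pair the samples. Deviations of same-numbered libraries correlated at 0.304, 0.133 and 0.07 between silencing and scrambled, and those of differently numbered libraries at −0.23 to 0.15. Between overexpression and empty vector the same-numbered values were −0.02, −0.05 and −0.02, and the others ran from −0.03 to 0.06. With the replicate block 14 members were higher and 17 lower for silencing against scrambled, 0 for overexpression, 10 and 9 for scrambled against empty vector, 17 and 17 for silencing against empty vector, and 8 and 12 for the difference. Over all genes the block gave 4208 higher and 4412 lower for silencing against scrambled, against 3730 and 4060 without it. It gave fewer for scrambled against empty vector (2351 and 2546, against 2996 and 3076). The same held for silencing against empty vector (4514 and 4528, against 4857 and 4781) and the difference (2908 and 3218, against 2972 and 3315). Bag3 and Hspa12b, the tested members with the fewest counts, had SEs of 0.44 and 0.36 for silencing against scrambled, which limits what could be seen in them.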
